A study of Rattus norvegicus with 12 samples.

Results

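The 10 genes described here encode parts of the T cell receptor complex and its co-receptors: the CD3 chains Cd3d, Cd3e and Cd3g, the co-receptors Cd4, Cd8a and Cd8b, the surface receptors Cd2 and Cd5, and the kinases Lck and Zap70. They were chosen by name, as every non-control probe of the array whose gene name was one of the 10, and each gene was measured by 1 probe, so that the set was 10 of 30367 probes. Expression was measured on 1-colour rat arrays, 1 per animal, in a segment of colon from 12 male Wistar rats, in 3 groups of 4. Group C (rats C1 to C4) was healthy, stayed with the dam and received placebo. Group M (M5 to M8) underwent neonatal maternal separation (NMS), a model of early-life stress in which pups were kept from the mother for 180 min a day from postnatal day 2 to day 14, and received placebo. Group D (D9 to D12) underwent the same NMS and received VSL#3, a mixture of live probiotic bacteria, by daily gavage from day 3 to day 60. All 3 groups underwent colorectal distension (CRD), a stretch of the distal bowel by a balloon that probes visceral pain, and were killed on day 60, so no rat free of CRD stands in these comparisons. RNA came from the tissue as a whole, as no sorting of cells is described.

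A T cell recognises a peptide on an MHC molecule through its antigen receptor, whose clonal chains have no signalling tail of their own. The CD3 chains carry the signal: Lck, held at the co-receptors Cd4 and Cd8, phosphorylates their tails, and Zap70 docks there and passes the signal on. Cd2 strengthens adhesion to the partner cell and Cd5 dampens the signal. In the colon T cells lie scattered in the epithelium and lamina propria and are dense in lymphoid patches and follicles, where B cells and a specialised stroma surround them. In the rat, Cd4 is carried by macrophages as well as by T cells.

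Each level below is a processed probe signal divided by the 75th percentile of its array, on a log2 scale, so that 0 is that percentile and a step of 1 is a doubling. The levels of 2 genes are not compared with each other, since probes differ in brightness. All 10 probes were well above background on all 12 arrays. The label of whole colon was borne by 17 of 18 measured epithelial markers and 10 of 10 smooth muscle markers, all detected above background in each of the 12 rats. Groups C and M were hybridised on 1 slide and Group D on another, so that slide and Group D cannot be told apart in either comparison that uses Group D. Between 75.5% and 77.5% of the spots on each array were well above background. The group tests used 11 arrays, without D12, which is given beside them as a value of its own and in a repeat of the fit on all 12 arrays.

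The probes of 5 of the genes are shown because each gene's values rest on a single 60-base window, and these 5 windows read as open coding frames. They are printed 5′ to 3′ as deposited and in lower case throughout, as the whole window hybridises.
Cd3e: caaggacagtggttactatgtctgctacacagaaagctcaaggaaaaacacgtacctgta
Cd8b: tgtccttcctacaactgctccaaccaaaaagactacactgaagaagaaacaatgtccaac
Cd2: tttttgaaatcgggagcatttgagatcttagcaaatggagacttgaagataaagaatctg
Cd5: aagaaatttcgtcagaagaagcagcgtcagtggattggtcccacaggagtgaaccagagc
Lck: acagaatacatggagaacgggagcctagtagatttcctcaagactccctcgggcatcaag
The array's annotation places them on the rn4 build. The Cd3e probe lies at chr8:47950313-47950372 on the minus strand, beside those of Cd3d at chr8:47936669-47936728 on the plus strand and Cd3g at chr8:47924376-47924435 on the minus strand. The Cd8b probe lies at chr4:104542505-104542564 and that of Cd8a at chr4:104593483-104593542, both on the plus strand. The Cd2 probe lies at chr2:196345785-196345844 on the minus strand. The Cd5 probe, at chr1:213216483-213217309, and the Lck probe, at chr5:148713169-148715276, cover 827 and 2108 bases of genome with 60 bases of probe, as a match across an exon junction would. The Cd4 probe, at chr4:160988512-160988571 on the minus strand, and the Zap70 probe, at chr9:35714961-35715020 on the plus strand, complete the set.

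The 3 CD3 genes, whose products are the signalling chains of the receptor, showed the pattern that recurred in the set: 5 of the 12 rats were high, and they came from all 3 groups. For Cd3e, the levels were -5.17, -2.12, -5.10 and -4.75 in C1 to C4, -2.15, -5.51, -2.73 and -2.67 in M5 to M8, and -5.13, -4.23, -4.22 and -0.95 in D9 to D12. For Cd3d, they were -1.56, 1.18, -1.80 and -0.97 in C1 to C4, 1.01, -1.59, 0.53 and 0.47 in M5 to M8, and -1.65, -0.85, -1.07 and 2.11 in D9 to D12. For Cd3g, they were -2.11, 0.98, -2.43 and -1.56 in C1 to C4, 0.69, -2.39, 0.11 and 0.14 in M5 to M8, and -2.58, -1.30, -1.60 and 1.88 in D9 to D12. In each of the 3 genes C2, M5, M7, M8 and D12 lay above all other rats, so that Group C held 1 high rat, Group M 3 and Group D 1, and the groups overlapped. The lowest of these 5 rats exceeded the next rat by 1.32 for Cd3d, 1.49 for Cd3e and 1.41 for Cd3g, or 2.50-fold, 2.81-fold and 2.66-fold. The spread over all 12 rats was 15-fold for Cd3d, 23.6-fold for Cd3e and 22-fold for Cd3g.

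The CD8 chains, which form the co-receptor of T cells that read MHC class I, followed the same rats over a narrower range. For Cd8a, the levels were -4.98, -2.55, -4.87 and -4.31 in C1 to C4, -2.85, -5.14, -3.31 and -3.55 in M5 to M8, and -4.74, -4.32, -4.39 and -1.92 in D9 to D12. For Cd8b, they were -5.43, -3.86, -5.56 and -5.31 in C1 to C4, -3.83, -5.51, -4.63 and -4.62 in M5 to M8, and -5.35, -5.35, -5.68 and -3.18 in D9 to D12. The lowest of the 5 high rats exceeded the next by 0.76 for Cd8a and by 0.68 for Cd8b, which were the narrowest of these gaps among the 9 genes other than Cd4.

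Cd4, the co-receptor of T cells that read MHC class II, was the exception. Its levels were -3.78, -3.34, -3.48 and -3.74 in C1 to C4, -3.47, -4.19, -3.90 and -3.74 in M5 to M8, and -4.06, -4.04, -4.06 and -2.97 in D9 to D12. Here D12, C2 and M5 were again the highest, but C3 stood above M8, and M7 below C1 and C4, and the spread over the 12 rats was 2.32-fold. No gap separated the fifth rat from the sixth. All 16 measured macrophage markers were well above background. Their summed signal (in multiples of the 75th percentile) ran from 40.6 to 73.1 in Group C, 46.3 to 97.3 in Group M and 38.0 to 78.2 in Group D. Such a sum weighs the brightest probes most, and the 5 rats with high CD3 levels were the 5 highest in 6 of the 16 markers. The part of macrophages in the Cd4 signal was not tested.

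Cd2 and Cd5, the adhesion receptor and the damping receptor, had the widest gaps. For Cd2, the levels were -5.78, -3.45, -5.99 and -5.80 in C1 to C4, -3.30, -5.89, -3.83 and -3.73 in M5 to M8, and -6.03, -5.63, -6.19 and -2.56 in D9 to D12. For Cd5, they were -5.95, -2.65, -6.53 and -5.68 in C1 to C4, -2.50, -7.55, -3.42 and -3.27 in M5 to M8, and -5.95, -5.20, -5.43 and -1.82 in D9 to D12. The lowest of the 5 high rats exceeded the next by 1.80 for Cd2 and 1.78 for Cd5. Both probes were dim in the 7 lower rats, with a processed signal of 22.3 to 32.8 for Cd2 and 8.9 to 43.4 for Cd5. That of Cd3d was 517 to 885 in the same rats. The log2 values of dim probes depend on the background correction, so the order of the gaps over the genes is uncertain. M6 had the lowest Cd5 level, which at -7.55 was also the lowest level among the probes well above background on that array, so the distance from M6 to the other rats is uncertain for this gene.

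The kinases Lck and Zap70 had the same rats high. For Lck, which starts the signal, the levels were -4.47, -2.12, -4.28 and -4.18 in C1 to C4, -2.32, -4.68, -2.78 and -2.62 in M5 to M8, and -4.95, -4, -4.36 and -1.25 in D9 to D12. For Zap70, which binds the phosphorylated chains, they were -2.20, -0.01, -2.49 and -2.10 in C1 to C4, 0.00, -2.61, -0.39 and -0.31 in M5 to M8, and -2.47, -1.99, -2.03 and 0.98 in D9 to D12. The same 5 rats were again the highest, with a gap of 1.22 for Lck and 1.60 for Zap70, and no group was separate from another.

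**Figure D1:**
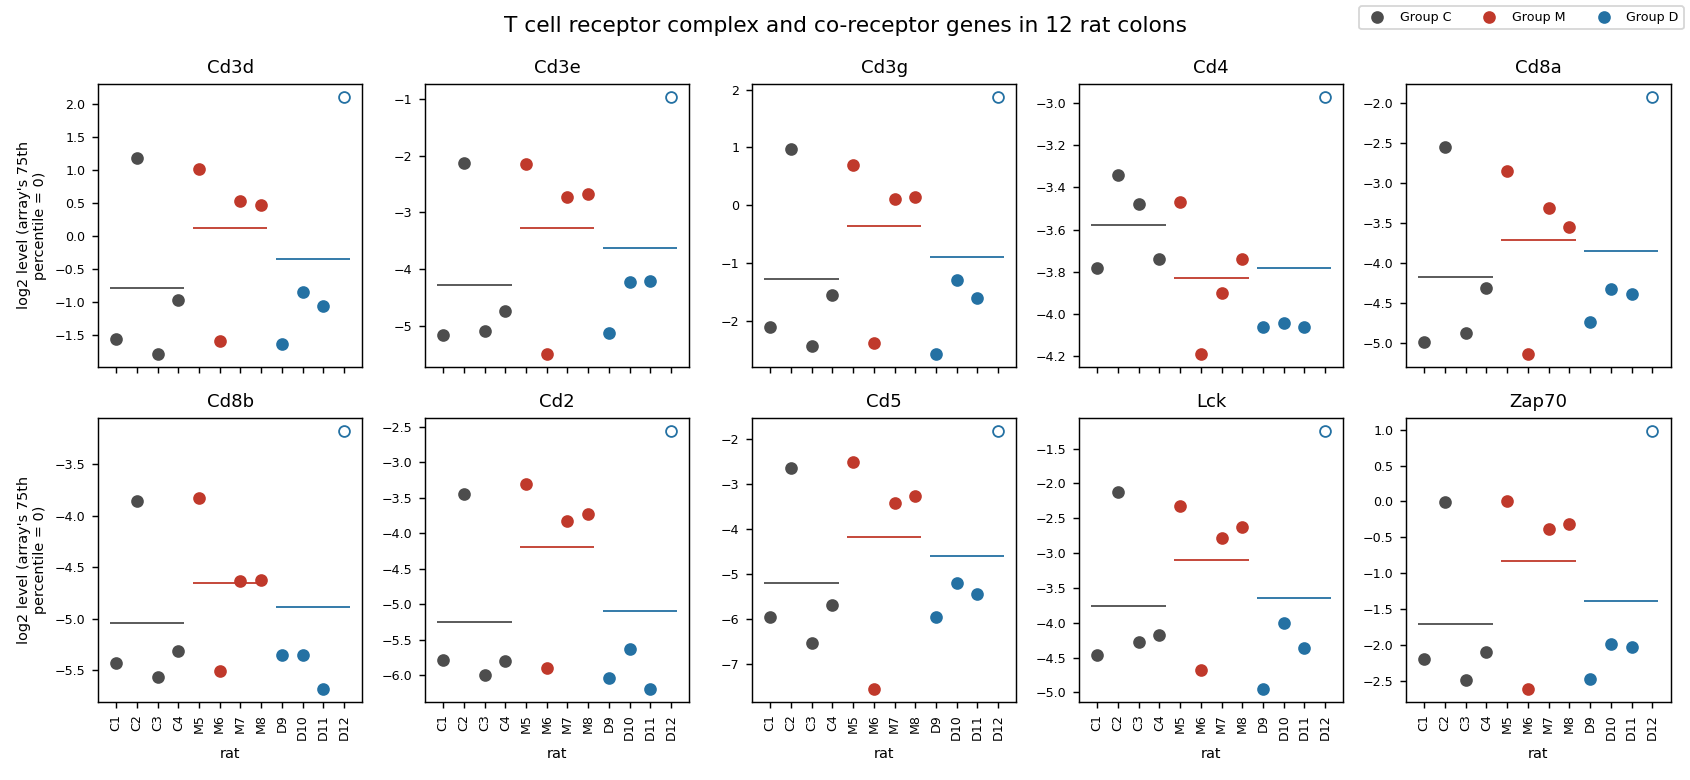
Level of each of the 10 genes (y axis, log2 signal with the array's 75th percentile at 0, own scale per panel) in each of the 12 rats (x axis), coloured by group, with a line at the mean of the 4 rats of a group and an open circle for D12. In every panel but that of Cd4, C2, M5, M7, M8 and D12 are the 5 highest points.

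Thus in 9 of the 10 genes the same 5 rats were highest, and D12 was the highest rat in all 10. The share of all probes with D12 highest was not computed. The 5 rats were read from these genes, so this count describes them and is no test. Over the whole array, 6.05% of probes with a value in every rat had the same 5 rats highest, and so did 7.37% of probes detected above background in each of the 12 rats. M6 was the low rat of Group M and C2 the high rat of Group C in all 9 genes. In these 9 genes both slides held high and low rats: on the second, D12 was high and D9, D10 and D11 were low. The part of the slide in these levels was not tested. In whole tissue, fewer T cells and less of each RNA per T cell cannot be told apart.

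NMS was compared with normal handling, Group M vs Group C, to ask whether early separation altered these genes in the adult colon, and both groups shared 1 slide. The means of 9 genes were higher in Group M and that of Cd4 was lower, but no gene passed the test: 0 of 10 had an adjusted p of 0.05 or less by limma, where 0.204% of all probes did. At an unadjusted p of 0.05 or less none passed either, against 22.7% of all probes. The differences were 0.89 ± 0.70 (SE) for Cd3d, 1.02 ± 0.83 for Cd3e and 0.92 ± 0.83 for Cd3g, with n = 4 against 4 and limma adjusted p of 0.485, 0.502 and 0.549. Those of Cd8a and Cd8b were 0.46 ± 0.59 and 0.39 ± 0.41, with limma adjusted p of 0.688 and 0.618. Cd4 differed by -0.24 ± 0.16, with a limma adjusted p of 0.393. That of Cd2 was 1.07 ± 0.65, a 2.09-fold ratio of means with a 95% interval from -0.39 to 2.52 on the log2 scale and a limma adjusted p of 0.364. Cd5, Lck and Zap70 differed by 1.02 ± 1.11, 0.67 ± 0.61 and 0.87 ± 0.65, with limma adjusted p from 0.458 to 0.631. The order of these differences depended on the background correction: with normexp, another correction, Cd2 differed by 0.49 and Cd8b by 0.15, while Cd3g, Cd3d and Zap70 differed by 0.86, 0.83 and 0.79.

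All 10 intervals held 0, which does not show that the groups were alike: for Cd3e the interval ran from -0.82 to 2.87. No gene had groups free of overlap, where 9.23% of all probes did. The spread within groups was as wide as the difference, with an SD of 1.46 in Group C and 1.52 in Group M for Cd3e. The median difference of the 10 genes was 0.88, beside -0.01 over all probes. With single rats left out it ran from 0.51 without M5 and 0.55 without C3 to 1.46 without M6 and 1.49 without C2. At an unadjusted p of 0.05 or less, 7 of the 10 genes were higher in Group M without C2, beside 11.5% of all probes, and 6 without M6, beside 14.7%, and none passed the adjusted limma test in either fit. With array quality weights, which gave M6 the lowest weight, Cd3e, Cd2 and Zap70 passed, with limma adjusted p of 0.042, 0.0253 and 0.034, as did 26.8% of all probes.

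VSL#3 was compared with placebo in separated rats, Group D vs Group M, to ask whether the probiotic altered these genes under NMS. On 11 arrays all 10 means were lower in Group D, and 0 of 10 genes passed the adjusted limma test, where 0.171% of all probes did. Cd2 alone had an unadjusted p of 0.05 or less, a direction and threshold met by 10.3% of all probes: its difference was -1.76 ± 0.71 (SE, n = 3 against 4), with an unadjusted limma p of 0.0315 and an adjusted p of 0.189. Lck and Zap70 differed by -1.34 ± 0.66 and -1.33 ± 0.70, with limma adjusted p of 0.271 and 0.297. Cd3d, Cd3e and Cd3g differed by -1.30 ± 0.76, -1.26 ± 0.90 and -1.47 ± 0.89, with limma adjusted p of 0.352, 0.449 and 0.373. Cd8a and Cd8b differed by -0.77 ± 0.63 and -0.81 ± 0.45, Cd5 by -1.34 ± 1.20 and Cd4 by -0.23 ± 0.17, with limma adjusted p from 0.323 to 0.562. With normexp the differences of Cd2 and Cd8b were -0.80 and -0.30.

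No gene was free of overlap between Groups D and M, where 15.8% of all probes were, because M6 lay below at least 1 of D9, D10 and D11 in every gene. For Cd3e, Cd4, Cd8a, Cd5 and Zap70 it lay below all 3. With D12 in the fit the differences shrank to between -0.91 for Cd2 and 0.04 for Cd4, and the limma adjusted p ran from 0.699 to 0.967. Cd3d then differed by -0.47 ± 0.90. In the other direction, without M6 the difference of Cd2 was -2.33 and that of Zap70 was -1.93, with limma adjusted p of 0.0315 and 0.0462, and all 10 genes then had groups without overlap, as did 36.7% of all probes. In that fit 14.8% of all probes passed the adjusted test, beside these 2 of 10 genes. Leaving out any other single rat called no member. With array quality weights Cd2, Lck and Zap70 passed, with limma adjusted p of 0.0172, 0.0349 and 0.0321, as did 21.7% of all probes.

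Group D was compared with Group C to ask whether separated rats given VSL#3 differed from healthy rats. On 11 arrays all 10 means were lower in Group D, by 0.24 to 0.70 on the log2 scale, and 0 of 10 genes passed the adjusted limma test, where 0.00659% of all probes did. Cd4 alone had an unadjusted p of 0.05 or less and was lower, as were 2.98% of all probes at that threshold. Its difference was -0.47 ± 0.17 (SE, n = 3 against 4), with an unadjusted limma p of 0.0198 and an adjusted p of 0.757. D9, D10 and D11 lay below every rat of Group C for Cd4, the only one of the 10 genes without overlap, where 7.57% of all probes had none. An exact two-sided permutation test of Cd4 alone gave p = 0.0571, the smallest that 3 rats against 4 allow.

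With D12 the other 9 genes turned to higher means in Group D than in Group C, from 0.12 for Lck to 0.65 for Cd3e, and Cd4 differed by -0.20 ± 0.25, with limma adjusted p from 0.928 to 0.993. D12 exceeded the highest rat of Group C by 0.37 for Cd4 to 1.17 for Cd3e.

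**Figure D2:**
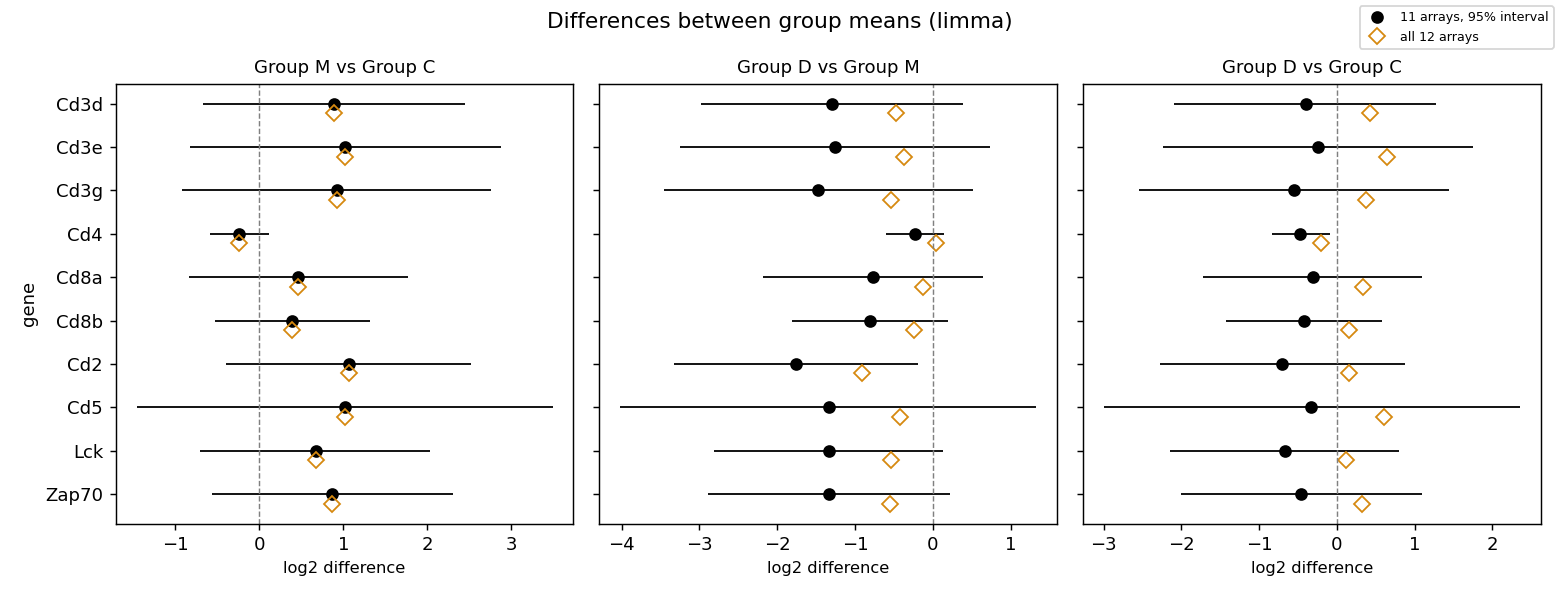
Difference of group means (x axis, log2) for each of the 10 genes (y axis) in the 3 comparisons, as points with 95% intervals from limma on 11 arrays and as open diamonds on all 12 arrays. The intervals of all genes but Cd2 in Group D vs Group M and Cd4 in Group D vs Group C hold 0, and the diamonds of 9 genes cross to the other side of 0 in Group D vs Group C.

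**Figure D3:**
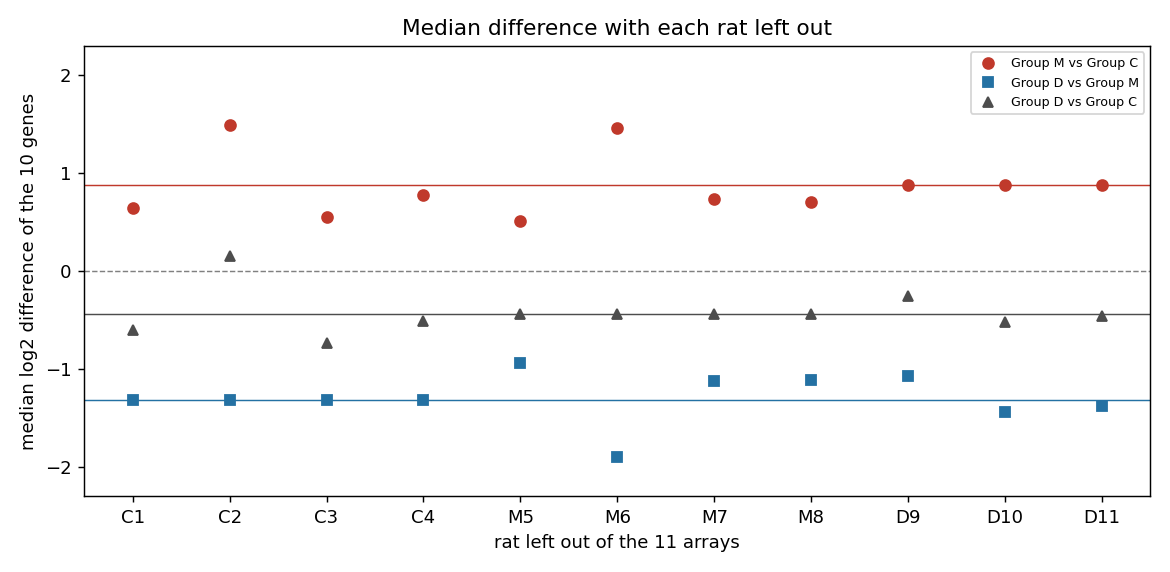
Median log2 difference of the 10 genes (y axis) when each of the 11 rats is left out in turn (x axis), for the 3 comparisons, with a line at the value on all 11 arrays. The median of Group M vs Group C moves from 0.88 to 1.49 without C2 and 1.46 without M6, and to 0.51 without M5 and 0.55 without C3, and that of Group D vs Group C moves from -0.44 to 0.15 without C2 and to -0.73 without C3.

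The balance of the CD8 and CD4 co-receptors was taken as the Cd8a level minus the Cd4 level within each rat, a difference whose sign has no meaning because the probes differ in brightness. It was -1.21, 0.79, -1.38 and -0.56 in C1 to C4, 0.62, -0.95, 0.59 and 0.19 in M5 to M8, and -0.68, -0.29, -0.33 and 1.05 in D9 to D12. The 5 rats with high CD3 levels again had the 5 highest values, as Cd8a ranged over 9.29-fold and Cd4 over 2.32-fold. The mean was -0.59 ± 0.99 (SD, n = 4) in Group C, 0.11 ± 0.74 (n = 4) in Group M and -0.43 ± 0.22 (n = 3) in Group D without D12. The difference was 0.70 in Group M vs Group C, with an exact two-sided permutation p of 0.314, where 0.0286 was the smallest possible. It was -0.55 in Group D vs Group M and 0.16 in Group D vs Group C, with exact permutation p of 0.286 and 0.914, and a design of 3 rats against 4 cannot go below 0.0571.

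**Figure D4:**
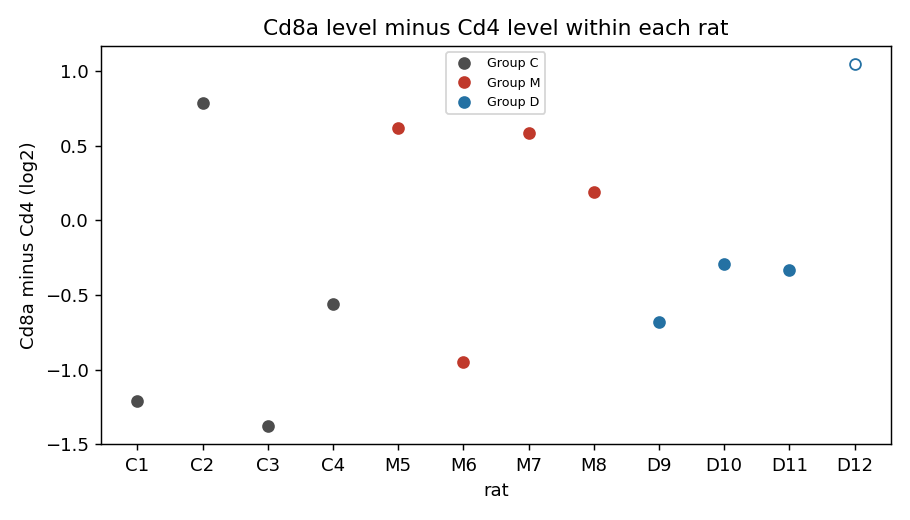
Cd8a level minus Cd4 level (y axis, log2) within each of the 12 rats (x axis), coloured by group, with an open circle for D12. The highest values are those of D12 at 1.05, C2 at 0.79 and M5 at 0.62, and C3 is the lowest at -1.38.

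Of the wider receptor machinery, 29 of 40 listed partners and proximal signalling genes were measured. None passed the adjusted limma test in any of the 3 comparisons, and at an unadjusted p of 0.05 or less 2 were higher and 1 lower in Group M vs Group C, and 1 higher and 8 lower in Group D vs Group M. The shares of all probes at that threshold, in either direction, were 22.7% and 21.6%. Their median difference was 0.70 in Group M vs Group C, beside -0.01 over all probes. In Group D vs Group M it was -0.95, beside 0.01. The same 5 rats were highest in 20 of the 29. Of the partners detected above background in each rat, the largest differences in Group M vs Group C were those of the phosphatase Ptpn7, 1.39, the receptor phosphatase Ptprc (CD45), 1.25, and the adaptor Sit1, 1.20, with limma adjusted p of 0.187, 0.348 and 0.504. Plcg1, the phospholipase that the receptor activates, went the other way and had the lowest p of the 29 genes: it differed by -0.80 ± 0.15, with a limma adjusted p of 0.0791, and Groups C and M did not overlap. In Group D vs Group M it differed by 0.66 ± 0.16, with a limma adjusted p of 0.09. Its second probe gave -0.77 and 0.72. Ptpn7 was at -3.27, -1.50, -3.24 and -3.28 in C1 to C4 and at -0.48, -3.13, -1.20 and -0.91 in M5 to M8, so C2 and M6 crossed between the groups here too. Cd247, the zeta chain that completes the receptor complex, differed by 0.84 in Group M vs Group C, with a limma adjusted p of 0.585, and had its 5 highest values in the same rats. For Tcrb, a chain of the receptor itself, the probes disagreed. The 1 probe of 3 that was well above background on all 12 arrays differed by -0.04 in Group M vs Group C, and by -0.05 between Groups D and M, and its 5 highest rats were not the same 5. The other 2 were well above background on 5 arrays only, had the same 5 rats highest, and differed by 1.06 and 1.16 in Group M vs Group C, with limma adjusted p of 0.568 and 0.583.

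Costimulatory and inhibitory receptors, 19 of 19 measured, had the same 5 rats highest in 8, none passed the adjusted limma test in any comparison, and their median difference in Group M vs Group C was 0.56. Cd27, Icos and Cd69, receptors of T cell help and activation, differed by 1.43, 1.27 and 0.81, with limma adjusted p of 0.528, 0.223 and 0.471. Cd28, the classical costimulator, and Ctla4, its inhibitory counterpart, were not well above background on any array. The ligands of these and of the T cell receptor set, 10 measured, had the same 5 rats highest in 5, and of those detected above background in each rat the largest differences were those of Tnfsf9, 1.49, Cd40, 0.85, and Cd274 (PD-L1), 0.55, with limma adjusted p of 0.123, 0.492 and 0.151. T cell transcription factors, cytokine receptors and homing receptors, 25 of 27 measured, had the same 5 rats highest in 16, and none passed. Ccr6, a homing receptor of mucosal lymphocytes, and Tcf7, a factor of naive and memory T cells, differed by 1.35 and 1.22, with limma adjusted p of 0.342 and 0.361. Of 15 measured cytotoxic and NK cell markers, 9 were detected above background in each rat and 2 were so on no array. The same 5 rats were highest in 1 of the 15, the perforin gene Prf1. For markers near background the order of the rats is uncertain. None of the 15 passed the adjusted limma test. At an unadjusted limma p of 0.05 or less, 10% of all probes were higher in Group M vs Group C and 12.6% were lower. Of the 15 markers 4 were higher at that threshold, namely Gzmb, Gzmk, Nkg7 and Cd244 at 0.94, 1.16, 0.59 and 0.75, and 1 was lower. The lower one, the granzyme gene Gzma, differed by -0.91 and was lowest in M7, at -4.27, and D12, at -4.25, and highest in D11, at -2.23.

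Markers of B cells and of lymphoid tissue stroma moved with these genes. Of 13 measured B cell markers, 12 had the same 5 rats highest, 4 were detected above background in each rat, and the summed signal ran from 1.47 to 9.98 in Group C, from 1.30 to 15.1 in Group M and from 1.37 to 22.6 in Group D. All 8 measured stroma markers, among them the follicle chemokine Cxcl13 and the T zone chemokine Ccl19, had the same 5 rats highest, with a summed signal from 6.41 to 26.7 in Group C, 5.74 to 28.0 in Group M and 6.00 to 32.2 in Group D. The 10 genes themselves summed to between 0.904 and 6.28 in Group C, 0.876 and 5.64 in Group M and 0.880 and 11.9 in Group D. How much of the differences in the T cell genes goes with these markers was not tested.

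The same 5 rats were highest in 6 of 16 macrophage markers, 4 of 8 dendritic, 5 of 11 neutrophil, 3 of 10 mast cell and 1 of 7 plasma cell markers. By summed signal they were also the 5 highest for macrophage markers, at 73.1 to 97.3 beside 38.0 to 46.3 in the other rats. So they were for dendritic (3.06 to 5.1 beside 1.72 to 2.47) and neutrophil markers (0.641 to 4.52 beside 0.27 to 0.384). This did not hold for mast cell or plasma cell sums. The split was thus not particular to T cell, B cell and stroma genes. The 5 rats were highest in 0 of 18 epithelial and 0 of 10 smooth muscle markers, whose sums ran from 355 to 552 and from 194 to 274 over all rats. Epithelial markers were low where the T cell genes were high: by the median over the 18 markers of each level minus that marker's median over the rats, D12 (-0.46), C2 (-0.28), M5 (-0.23), M7 (-0.12) and M8 (-0.05) were the 5 lowest, and the other 7 rats ran from -0.03 to 0.31. The 2 lowest epithelial sums were those of D12, 355, and C2, 388, while M7, at 547, was among the highest. The part of this shift in the T cell values was not tested. The median difference in Group M vs Group C was 2.01 for B cell and 1.34 for stroma markers, and -0.12 for epithelial and 0.00 for smooth muscle markers. Of all these markers, the mast cell gene Hdc, which makes histamine, passed the adjusted limma test in Group M vs Group C, with a difference of 1.61 and an adjusted p of 0.0421.

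**Figure D5:**
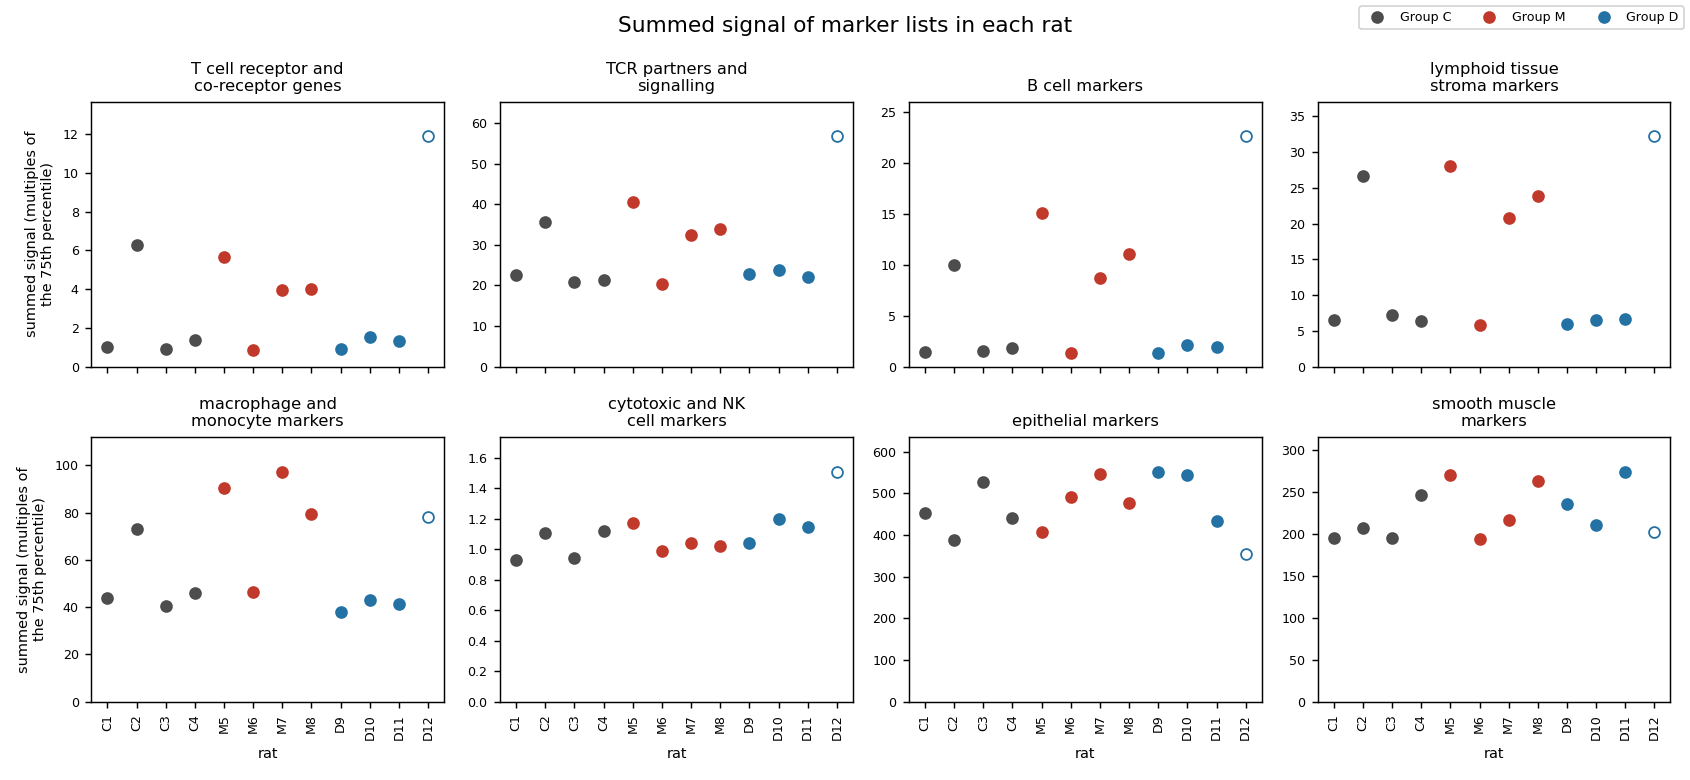
Summed signal of each list (y axis, multiples of the array's 75th percentile, from 0) in each of the 12 rats (x axis), coloured by group, with an open circle for D12. The sums of the T cell receptor genes, their partners, B cell, stroma and macrophage markers are high in C2, M5, M7, M8 and D12. Epithelial sums run from 355 in D12 and 388 in C2 to 552 in D9.

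Outside the set, the 10 named probes most like it over the 12 rats, by Pearson's r with the mean of the 10 standardised genes, had r from 0.989 to 0.994. Among them were Evl, Arhgap15, Limd2, Gpsm3, Hmha1, Pik3cd, Rasal3, Acap1 and Tasp1. Pik3cd is the leukocyte form of the PI3-kinase catalytic subunit, and Evl, an actin regulator, came first. Since the rats fall into a high and a low set, r over 12 mostly measures that split, and within the 7 lower rats it was 0.909 for Evl and 0.571 for Tasp1. All values share the 12 arrays, so r is a description.

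The 250 bases before the RefSeq start sites of the 10 genes were searched for short sequence cores. This used the GRCr8 build, whose positions are not comparable with those of rn4 above. Whether the genes share control through these bases was not tested. Of the 10 genes 8 were matched, with 9 windows, as Lck has 2 start sites. The Ets core GGAAGT, on either strand, was in 5 of the 9 windows (Cd3d, Cd3e, Cd5 and both of Lck), and in 19.2% of all 33469 windows. The Runx core TGTGGT was in 2 of 9 (14.5% of all), the E box CANCTG in 5 of 9 (43.3%) and the Tcf/Lef core CTTTGA in 2 of 9 (13.9%). The 3 windows with a GGAAGT match that lie outside the annotated gene are shown, 5′ to 3′ on the gene's strand and ending 1 base before the start site, with each match on either strand in capitals.
Cd3e upstream, chr8:54211771-54212020, minus strand: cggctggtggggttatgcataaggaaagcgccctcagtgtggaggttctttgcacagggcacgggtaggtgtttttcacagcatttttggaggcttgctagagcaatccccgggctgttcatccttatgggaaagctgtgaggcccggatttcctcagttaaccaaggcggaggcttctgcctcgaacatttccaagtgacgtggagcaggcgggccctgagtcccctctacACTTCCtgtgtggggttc
Lck upstream, chr5:147201268-147201517, minus strand: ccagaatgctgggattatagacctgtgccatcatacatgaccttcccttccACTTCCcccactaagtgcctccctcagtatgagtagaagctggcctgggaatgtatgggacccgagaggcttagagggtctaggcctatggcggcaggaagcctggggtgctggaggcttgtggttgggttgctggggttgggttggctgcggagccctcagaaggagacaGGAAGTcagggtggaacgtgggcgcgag
Cd5 upstream, chr1:216811210-216811459, minus strand: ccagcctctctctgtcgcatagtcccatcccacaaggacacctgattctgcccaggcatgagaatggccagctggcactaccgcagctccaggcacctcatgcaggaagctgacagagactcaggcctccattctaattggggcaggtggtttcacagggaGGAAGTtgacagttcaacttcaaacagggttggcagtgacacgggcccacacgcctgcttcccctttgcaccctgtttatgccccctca
A match is a run of letters and not a measured site, and the arrays did not measure binding.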

How the data were processed

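RNA of 12 colons was hybridised to 1-colour Agilent arrays, 1 per rat. Per the file headers, the authors obtained spot intensity with Agilent Feature Extraction 10.5.1.1, which subtracted background and flagged outliers, with annotation on rn4. The authors' deposited table holds log2 values of the same arrays, each column matching its own array. From the deposited intensities, outlier spots were left out, log2 of the processed signal was shifted by each array's 75th percentile, and spots of a probe were averaged. The 75th percentile ran from 1434 to 1953 and no spot was saturated. The number of arrays limits the precision. Whether rats shared a litter is not stated. The p-values set group differences against the spread between rats taken as independent, and would be too small if littermates within a group were alike. Groups came from the sample titles.

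Main tests used limma 3.58.1 (R 4.3.3), with lmFit and eBayes, 3 groups in 1 model, and Benjamini-Hochberg adjustment over all probes. The main model held 11 arrays, as in the study's methods, which name D9 to D11 for Group D and give no reason for the missing array. That this array is D12 was taken from the order of the sample titles. Cd8a minus Cd4 used an exact two-sided permutation test. The limma code was tested on simulated data. Alternatives were normexp background correction (offset 50), quantile and median scaling, the authors' table, outlier spots kept, a filter on dim probes, a replicate block, array weights, 2-group fits, each rat left out, and the methods' ANOVA with Tukey and a 2-fold change. The members and lists were chosen with earlier results of these data known. Every member probe is named, and of each T cell list the genes that passed, or else the 3 largest differences in Group M vs Group C of those detected above background in each rat. Genes named beyond that rule (Cd247, Tcrb, Plcg1, Cd28, Ctla4, Prf1, Gzma, Gzmb, Gzmk, Nkg7, Cd244, Cxcl13, Ccl19, Hdc) were chosen after their values were seen. Some genes that the rule would name are not reported here. Figures used matplotlib.

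Titles number the rats 1 to 4 within a group. Deviations of same-numbered rats from their group means correlated between -0.72 and 0.18, above 0.1 in 1 of 10 pairs, so the numbers were not taken as pairs.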

Additional observations from a re-analysis of the deposited data

Results flagged for a closer look

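Within groups of 4 rats, 1 rat stood apart from the other 3 by Dixon's criterion at the 95% level (the gap to the nearest rat over the group's range) in 12 of 33 group and measure combinations. The share of all probes that meet this criterion was not computed, so whether 12 is many for these arrays is not known. In Group C the rat was C2, high for Cd3e (0.8615), Cd8b (0.8546), Cd2 (0.9186), Lck (0.8789) and Zap70 (0.8444). In Group M it was M6, low for Cd3e (0.8291, just past the limit) and Zap70 (0.8516). In Group D it was D12, high for Cd4 (0.9749), Cd8a (0.8503), Cd8b (0.8682), Cd2 (0.8459) and Zap70 (0.8617). The genes share the same rats, so these are not separate events.

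D12, the array outside the 11 of the group tests, had a higher level than every rat of Group C in 10 of the 10 genes. The share of all probes for which this held was not computed, so how unusual the count is for this array is not known.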

How the results depend on the processing

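No member passed the adjusted limma test on 11 arrays. Of the recomputed counts and co-receptor differences, 265 kept their verdict, 32 moved and 3 reversed. Each gene had 1 probe, so the mean of all probes could not differ and was not run. The cause of each change below was not tested.

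With all 12 arrays, members at an unadjusted p of 0.05 or less were 0 in Group D vs Group M and 0 in Group D vs Group C, and 0 lacked overlap in the latter. Cd4 reversed to 0.04 in Group D vs Group M. In Group D vs Group C, Cd3d reversed to 0.42, Cd3e to 0.65, Cd3g to 0.38, Cd8a to 0.33, Cd8b to 0.15, Cd2 to 0.15, Cd5 to 0.60, Lck to 0.12 and Zap70 to 0.32. With normexp, members at the unadjusted threshold were 2 in Group D vs Group M and 0 in Group D vs Group C, 1 partner gene was called in Group M vs Group C, and Cd8a minus Cd4 in Group D vs Group C reversed to -0.04. The filter on dim probes called 1 partner gene in Group M vs Group C. Of all probes tested in that comparison, 0.537% were called with normexp and 0.549% with the filter.

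With the replicate block, members at the unadjusted threshold were 0 in Group D vs Group M and 0 in Group D vs Group C, and no member was called, so the pairing by number changed no other verdict.

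Array weights, which ranged from 0.360 for M6 to 3.92 for M8, called 3 members in Group M vs Group C (Cd3e 1.86, Cd2 1.67, Zap70 1.5) and 3 in Group D vs Group M (Cd2 -2.15, Lck -1.69, Zap70 -1.74), with 7 and 9 at the unadjusted threshold (beside 39% and 35.1% of all probes) and 11 and 12 partner genes called. Over the whole array they called 8151 and 6576 probes, against 62 and 52 without weights. They reversed Cd3e to 0.13 and Cd5 to 0.01 in Group D vs Group C.

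With each rat left out, members called ranged from 0 to 2 in Group D vs Group M, and members at the unadjusted threshold from 0 to 7 in Group M vs Group C, from 0 to 10 in Group D vs Group M and from 0 to 1 in Group D vs Group C. Of all probes, 26.1% passed that threshold in Group M vs Group C without C2, where 7 members did, and 30.3% in Group D vs Group M without M6, where 10 did. Partner genes called ranged from 0 to 6 in Group M vs Group C and from 0 to 8 in Group D vs Group M, the highest without M6. In the fit without M6, 16.2% and 14.8% of all probes were called in these 2 comparisons. Members without overlap ranged from 0 to 10 in Group D vs Group M and from 1 to 2 in Group D vs Group C. The count of 10 came without M6, where 36.7% of all probes lacked overlap. In Group D vs Group C that share ran from 7.57% to 15.6% over these fits. Cd8a minus Cd4 in Group D vs Group C ranged from -0.11 without C3 to 0.62 without C2. It was -0.05 without C1. In Group D vs Group C, Cd3d ranged from -0.74 to 0.25, Cd3e from -0.53 to 0.48, Cd3g from -0.93 to 0.21, Cd8a from -0.58 to 0.23, Cd5 from -0.77 to 0.53 and Zap70 from -0.73 to 0.10, each highest and reversed without C2, and Cd3e was also reversed, to 0.06, without D9.

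All 10 genes were well above background on every array, but the dim ones depended on its correction: with normexp the median difference in Group M vs Group C was 0.58, and Cd2 and Cd8b differed by 0.49 and 0.15. Slide and Group D cannot be told apart.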
